A study of Homo sapiens with 23 samples.

Results

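The genes described here are 9 genes of the p53 network, namely the p53 target genes CDKN1A, MDM2, EDA2R, SESN1, ZMAT3, FDXR, TP53INP1 and GDF15 and the p53 family gene TP63. They were taken by NCBI Gene ID from an expression table of 21658 genes, and all 9 have a value in each of the 23 libraries. No filter on low values was applied here, so no member was lost. The members were picked with their levels in the 4 cell lines and their differences between resistant and parental libraries already known. Their values are therefore a description, and where members are counted by the rule used for all genes, the count places them among all genes and is no test of them.

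The libraries are stranded mRNA-seq libraries of total RNA from established human ovarian cancer cell lines, OV-90, Kuramochi, OVSAHO and EFO-21. Each line was present as the parental culture and as a derivative resistant to prexasertib, an inhibitor of the checkpoint kinase CHK1. The derivatives, labelled prexasertib_resistant, were obtained in culture by raising the drug concentration stepwise over a long period. Each of the 8 groups has 3 libraries labelled as biological replicates, except parental OV-90 with 2, and libraries carry numbers from 2 to 24 that serve here as names. Whether a resistant culture was a clone or a mixed population, and whether it was kept in drug when RNA was taken, was not given in the sources used here, and no group was a short drug treatment. The comparison of resistant with parental libraries asks what differs between a line and its own resistant derivative, and the comparison of parental libraries asks how the lines differ before that.

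p53 is a transcription factor that is stabilised by DNA damage and other stress and switches on genes for cell cycle arrest, repair, metabolism and cell death. MDM2, one of these genes, encodes the ubiquitin ligase that in turn degrades p53, which closes a feedback loop.

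All values are log2 expression values, deposited after quantile normalization, so a difference of 1 is a 2-fold difference. The median gene had a value of 6.01 in every library, and the 10th percentile of genes lay between 1.70 and 1.87, and values at or below it are called the bottom here. The number of reads behind a value is unknown. The 2 parental OV-90 libraries correlated less across genes (r = 0.952) than any other libraries of a group (0.971 to 0.988). As to the labelled tissue, EPCAM was above the median gene in all parental lines, and the Müllerian markers PAX8 and SOX17 were high in all but OV-90, where their means were 2.10 and 4.38. Of 9 such markers, KRT8 and KRT18 were high in every line, while WT1 was low in parental OV-90 (1.87) and EFO-21 (1.03), MUC16 in OV-90 (1.15) and Kuramochi (2.48), KRT7 in all but OVSAHO (2.76 to 3.76), and CDH1 was below the median gene in Kuramochi and EFO-21. Some markers of other cell types were also high, among them LUM (12.76) and LYZ (12.06) in parental OV-90 and CDH5 (9.11) and PECAM1 (8.48) in parental EFO-21.

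Promoter sequence is shown for 5 members because p53 acts on its target genes through a motif of this kind. RefSeq promoter windows of GRCh38.p14, each covering 250 bases before and 50 bases after a start site, matched 8 of the 9 members in 16 windows. They were searched on both strands for the p53 decamer motif, which is its own reverse complement, and for an abutting pair of decamers, 20 bases long. An exact decamer occurred in 6.63% of all 35116 windows, a pair with up to 3 mismatches in 5.2% and a pair with up to 2 mismatches in 0.649%. Among the members, MDM2 had a pair with 2 mismatches and SESN1, FDXR and GDF15 had a pair with 3, and SESN1 and FDXR had an exact decamer. In the stretches below, written 5′ to 3′ on the strand of the gene, capitals mark the pair in MDM2 and GDF15 and the exact decamer in SESN1 and FDXR. The MDM2 stretch lies before the internal start site at chr12:68808767-68809001 (plus strand), SESN1 at chr6:109008989-109009238 (minus), EDA2R at chrX:66639299-66639519 (minus), FDXR at chr17:74872986-74873015 (minus) and GDF15 at chr19:18386186-18386205 (plus).
MDM2: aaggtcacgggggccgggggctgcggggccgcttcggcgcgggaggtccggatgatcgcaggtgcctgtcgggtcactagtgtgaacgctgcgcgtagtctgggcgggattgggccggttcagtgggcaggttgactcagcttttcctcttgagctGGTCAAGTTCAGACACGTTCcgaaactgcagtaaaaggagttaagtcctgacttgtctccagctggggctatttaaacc
SESN1: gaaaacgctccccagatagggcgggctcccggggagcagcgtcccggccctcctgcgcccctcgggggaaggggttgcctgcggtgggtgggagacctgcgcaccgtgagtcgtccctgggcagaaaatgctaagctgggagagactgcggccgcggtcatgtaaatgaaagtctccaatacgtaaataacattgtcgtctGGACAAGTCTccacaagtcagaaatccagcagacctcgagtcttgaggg
EDA2R: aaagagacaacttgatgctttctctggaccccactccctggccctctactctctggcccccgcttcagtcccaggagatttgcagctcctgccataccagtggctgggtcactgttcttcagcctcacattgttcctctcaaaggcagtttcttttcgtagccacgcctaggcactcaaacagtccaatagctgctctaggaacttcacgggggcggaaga
FDXR: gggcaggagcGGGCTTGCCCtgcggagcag
GDF15: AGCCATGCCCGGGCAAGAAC
EDA2R is shown because it had the largest difference of the members, and no exact decamer was found in either of its windows. No match says only that these letters are absent from this window, since p53 also binds far from start sites.

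In all 9 members the range of the 4 parental means was wider than the pooled SD within groups, from 1.18 against 0.12 for SESN1 to 6.18 against 0.16 for GDF15. GDF15, a secreted cytokine of the TGF-beta superfamily that many stresses induce, spanned the widest range. Its parental means were 12.28 in OV-90, 10.03 in EFO-21, 7.83 in OVSAHO and 6.10 in Kuramochi, and no 2 neighbours in this order overlapped. CDKN1A, which encodes the cyclin-dependent kinase inhibitor p21, had means of 7.88 in Kuramochi, 7.67 in EFO-21, 7.22 in OV-90 and 4.94 in OVSAHO. OVSAHO thus lay below every library of the other parental lines, whereas Kuramochi and EFO-21 overlapped.

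EDA2R encodes a receptor of the tumor necrosis factor receptor family for the A2 form of ectodysplasin. Among parental cultures it was above the bottom in all libraries of OVSAHO (4.53 ± 0.30, SD, n = 3) and just above it in OV-90 (2.13 ± 0.40, n = 2). It was at the bottom in all libraries of Kuramochi (1.09 ± 0.18) and EFO-21 (0.35 ± 0.17). The value of EDA2R rests on 4 exons and that of GDF15 on 3, the fewest of the members, against 31 for MDM2.

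Parental OV-90 had the lowest parental mean of TP53INP1 (3.16), ZMAT3 (3.47) and MDM2 (4.57), and no library of these overlapped with another parental line. It also had the highest mean of FDXR, which encodes mitochondrial ferredoxin reductase (7.86, against 4.14 in EFO-21 as the lowest). SESN1, which encodes the mTORC1 regulator sestrin 1, varied least of the 9, from 5.57 in OV-90 to 6.75 in Kuramochi, and the libraries of OV-90 and OVSAHO overlapped. TP63 means ran from 3.03 in EFO-21 to 4.92 in OV-90, and those of OVSAHO and Kuramochi were both 4.26.

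Set against the mean of the other 3 parental lines, members past the rule used for all genes (adjusted p under 0.05 in limma and at least 2-fold) were 3 higher and 3 lower in OV-90, where 21.2% of all genes were called higher and 25.1% lower. In Kuramochi they were 3 higher and 2 lower (17.6% and 18.9% of all genes), in OVSAHO 1 and 2 (19.6% and 19.7%), and in EFO-21 2 and 3 (20% and 21.6%). Since levels in the lines were known when the members were picked, nothing is read from these counts, and the 4 comparisons share libraries. Of 100 other measured p53 targets, taken from a list of 101, 20 were called higher and 27 lower in OV-90, 19 and 18 in Kuramochi, 14 and 22 in OVSAHO, and 28 and 16 in EFO-21. Their median difference was -0.05 in OV-90 beside -0.08 over all genes, 0.01 beside 0.02 in Kuramochi, -0.08 beside 0.05 in OVSAHO and 0.25 beside -0.04 in EFO-21.

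**Figure D1:**
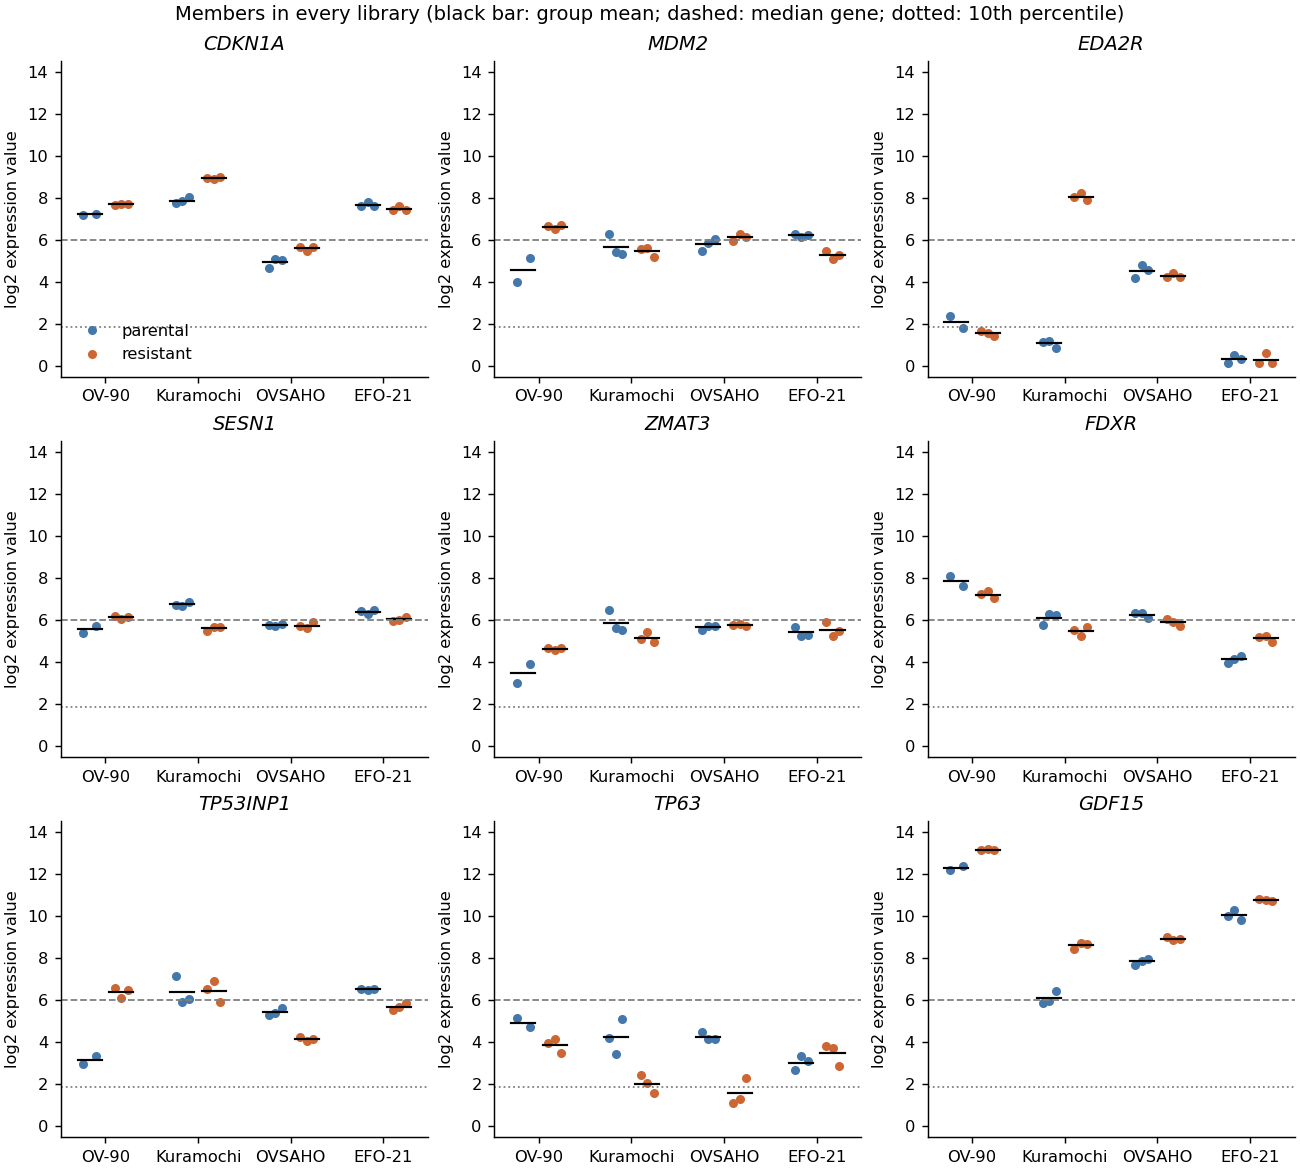
Log2 expression values (vertical axis) of the 9 members in each of the 23 libraries, with parental libraries in blue and resistant libraries in orange for each line on the horizontal axis. Black bars are group means, the dashed line is the median gene and the dotted line the 10th percentile of genes; EDA2R in resistant Kuramochi (7.92 to 8.24) stands alone above the median gene in its panel.

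In Kuramochi, EDA2R was at the bottom in the parental libraries and above the median gene in the resistant ones. The parental values were 1.17, 1.21 and 0.89, and the resistant values 8.02, 8.24 and 7.92. The log2 difference was 6.97 (SE 0.14), and since all parental libraries lay at the bottom it is a difference of deposited values and not a measured fold change. As these are whole cultures, more cells with the transcript and more transcript per cell cannot be told apart. In no other line did the resistant libraries lie above the parental ones. In OV-90 the values were 2.41 and 1.84 in parental and 1.69, 1.58 and 1.42 in resistant libraries, which puts all resistant libraries at the bottom. In OVSAHO they were 4.21, 4.82 and 4.57 in parental and 4.24, 4.44 and 4.23 in resistant libraries, and the groups overlapped. All EFO-21 libraries were at the bottom, between 0.14 and 0.61, so there the gene was not separable from unexpressed genes.

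GDF15 was higher in all resistant libraries than in all parental libraries of the same line, in each of the 4 lines, and was the only member with that pattern. In Kuramochi the parental values were 5.88, 5.98 and 6.43 and the resistant values 8.42, 8.71 and 8.67, a difference of 2.50 (SE 0.19, 5.67-fold). In OVSAHO the parental values were 7.67, 7.87 and 7.97 and the resistant values 9.02, 8.84 and 8.91, a difference of 1.09 (SE 0.10, 2.13-fold). In OV-90 the values were 12.20 and 12.37 in parental and 13.11, 13.16 and 13.15 in resistant libraries, a difference of 0.86 (SE 0.09). In EFO-21 they were 9.9997, 10.26 and 9.82 in parental and 10.80, 10.77 and 10.69 in resistant libraries, a difference of 0.73 (SE 0.13). The spread within groups was small beside these differences, with a pooled SD of 0.16.

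CDKN1A was higher in the resistant libraries of 3 lines with no overlap. In Kuramochi the parental values were 7.77, 7.83 and 8.03 and the resistant values 8.93, 8.91 and 9.01, a difference of 1.07 (SE 0.08, 2.10-fold). In OVSAHO they were 4.68, 5.08 and 5.05 against 5.69, 5.49 and 5.65, a difference of 0.67 (SE 0.14). In OV-90 they were 7.21 and 7.22 against 7.67, 7.72 and 7.72, a difference of 0.49 (SE 0.02). EFO-21 was the exception, with overlapping values of 7.60, 7.79 and 7.62 in parental and 7.43, 7.63 and 7.42 in resistant libraries (difference -0.18, SE 0.09). Resistant OVSAHO, in spite of its difference, remained below every OV-90, Kuramochi and EFO-21 library.

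MDM2 was higher in resistant OV-90 and lower in resistant EFO-21. In OV-90 the parental values were 4.01 and 5.13 and the resistant values 6.66, 6.54 and 6.71, a difference of 2.07 (SE 0.56). The parental libraries lay farther apart than any 2 libraries of another group, and the difference was 1.51 without library 2 and 2.63 without library 3. In EFO-21 the parental values were 6.29, 6.15 and 6.26 and the resistant values 5.49, 5.12 and 5.28, a difference of -0.94 (SE 0.12). Every resistant EFO-21 library thus lay below every parental one. In Kuramochi the values were 6.28, 5.42 and 5.35 against 5.56, 5.63 and 5.19, and in OVSAHO 5.46, 5.84 and 6.07 against 5.97, 6.30 and 6.16, with overlap in both.

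TP53INP1 encodes a nuclear and autophagy-related protein that acts with p53 in stress responses, and it had the largest difference in OV-90. The parental values were 2.98 and 3.34 and the resistant values 6.56, 6.11 and 6.50, a difference of 3.23 (SE 0.23, 9.37-fold). In OVSAHO the order was the reverse, with 5.30, 5.40 and 5.61 in parental and 4.24, 4.05 and 4.15 in resistant libraries (difference -1.30, SE 0.11). EFO-21 resembled OVSAHO in direction, with 6.52, 6.49 and 6.55 against 5.52, 5.67 and 5.84 (difference -0.84, SE 0.09). In Kuramochi the values were 7.14, 5.93 and 6.05 against 6.55, 6.90 and 5.89, and they overlapped. Resistant OV-90, at a mean of 6.39, came to the level of parental Kuramochi (6.37) from the lowest level of all groups.

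SESN1 and ZMAT3, the latter a zinc finger protein that binds RNA, were both higher in resistant OV-90 and lower in resistant Kuramochi. SESN1 values in Kuramochi were 6.72, 6.69 and 6.84 in parental and 5.49, 5.65 and 5.69 in resistant libraries, a difference of -1.14 (SE 0.08). SESN1 in OV-90 was 5.40 and 5.74 against 6.20, 6.07 and 6.14 (difference 0.57, SE 0.17), and in EFO-21 6.44, 6.29 and 6.46 against 5.95, 6.01 and 6.15 (difference -0.36, SE 0.08). In OVSAHO SESN1 overlapped, from 5.61 to 5.90 over both groups. ZMAT3 in OV-90 was 3.02 and 3.93 against 4.68, 4.57 and 4.66 (difference 1.16, SE 0.46), so the parental libraries differed from each other by nearly as much as the groups did. ZMAT3 in Kuramochi was 6.46, 5.61 and 5.52 against 5.08, 5.42 and 4.97 (difference -0.71, SE 0.33), and the highest value was that of parental library 4. In OVSAHO and EFO-21 the ZMAT3 libraries overlapped, with differences of 0.10 and 0.13.

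FDXR had no overlap between groups in any line. It was higher in resistant EFO-21, with 5.18, 5.22 and 4.98 against 3.97, 4.16 and 4.28 in the parental libraries (difference 0.99, SE 0.12). In the other lines every resistant library lay below every parental one, with differences of -0.65 in OV-90 (SE 0.25), -0.61 in Kuramochi (SE 0.22) and -0.37 in OVSAHO (SE 0.12). EFO-21 had the lowest parental level of the 4 lines, and the resistant culture, at 5.13, stayed below all groups of the other lines, the nearest being resistant Kuramochi at 5.49.

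TP63 encodes p63, the p53 family member that maintains basal cells of squamous epithelia. In Kuramochi the parental values were 4.22, 3.46 and 5.09 and the resistant values 2.44, 2.07 and 1.60, a difference of -2.22 (SE 0.53). In OVSAHO they were 4.47, 4.14 and 4.17 against 1.11, 1.32 and 2.28, a difference of -2.69 (SE 0.37). In these resistant cultures 1 Kuramochi library and 2 OVSAHO libraries lay at the bottom, so the size of the differences is uncertain. In OV-90 the values were 5.14 and 4.70 against 3.96, 4.15 and 3.49 (difference -1.05, SE 0.30), and in EFO-21 2.66, 3.33 and 3.11 against 3.84, 3.73 and 2.89, with overlap. The TP63 value is a mean over 5 exons rather than a model estimate.

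Counted by the rule for all genes, 3 members were higher in resistant OV-90 (MDM2, ZMAT3, TP53INP1) and 1 lower (TP63), where 9.5% of all genes were called higher and 6.56% lower. Of these 4, TP53INP1 alone passed without library 13, 14 or 15, and MDM2 and TP53INP1 without library 2. In Kuramochi 3 were higher (CDKN1A, EDA2R, GDF15) and 2 lower (SESN1, TP63), beside 11.8% and 10.6% of all genes. In OVSAHO 1 was higher (GDF15) and 2 lower (TP53INP1, TP63), beside 3.93% and 3.83%. In EFO-21 no member passed, beside 7.11% and 7.15% of all genes. The nearest there were FDXR and MDM2, just short of 2-fold. Libraries of the 2 groups did not overlap in 9 members in OV-90, 7 in Kuramochi, 5 in OVSAHO and 5 in EFO-21, and over all genes this held for 69.1%, 59.2%, 48.4% and 59.7%. The members were picked on these contrasts, so the counts describe them and nothing is read from them.

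**Figure D2:**
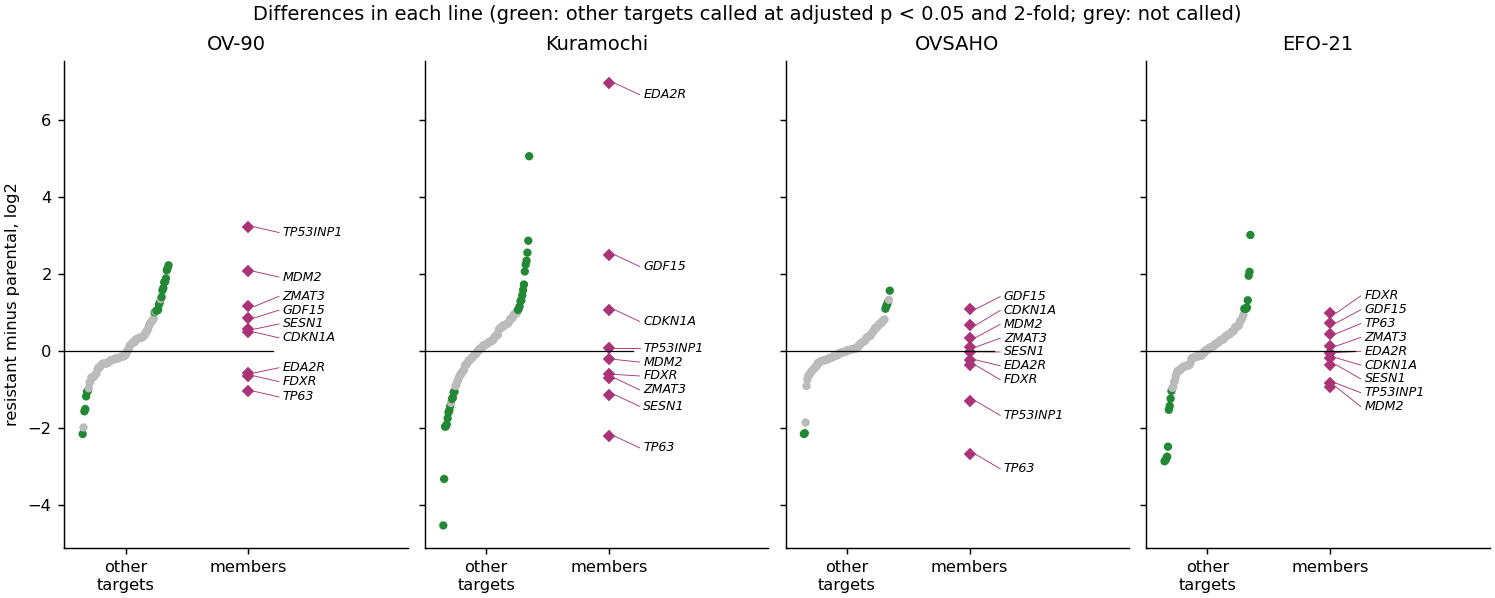
Difference of resistant minus parental group means on the log2 scale (vertical axis) in each line, for the 100 other p53 targets in rank order (points; green where called by limma) and for the 9 members (diamonds with names). EDA2R in Kuramochi (6.97) and TP53INP1 in OV-90 (3.23) lie above all other targets of their line, and TP63 in OVSAHO (-2.69) lies below all of them.

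In OV-90 the differences moved with transcript length. Genes were sorted by longest transcript into 5 classes of 2964 to 2969 genes, which hold only part of the 19596 genes with a length. The median difference was -0.48 in the shortest class, then -0.22, 0.01, 0.25, and 0.52 in the longest. Between the 2 parental OV-90 libraries themselves (library 3 minus library 2) it ran from -0.27 to 0.29, whereas in the other lines the classes lay between -0.15 and 0.17. The members with higher values in resistant OV-90 include the long transcripts of ZMAT3 (8936 bases), MDM2 (7490), SESN1 (5664) and TP53INP1 (5631). FDXR, lower there, is short (2482 bases), but GDF15 (1478) and CDKN1A (2267) are also short and were higher, and TP63 (4944) is long and was lower. With genes of like length centred to a common median, an alternative chosen after seeing the data, the OV-90 differences became 0.52 for ZMAT3, 1.54 for MDM2, 0.23 for SESN1, 2.89 for TP53INP1 and 1.26 for GDF15. The part of transcript length or RNA quality in these differences was not tested.

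**Figure D3:**
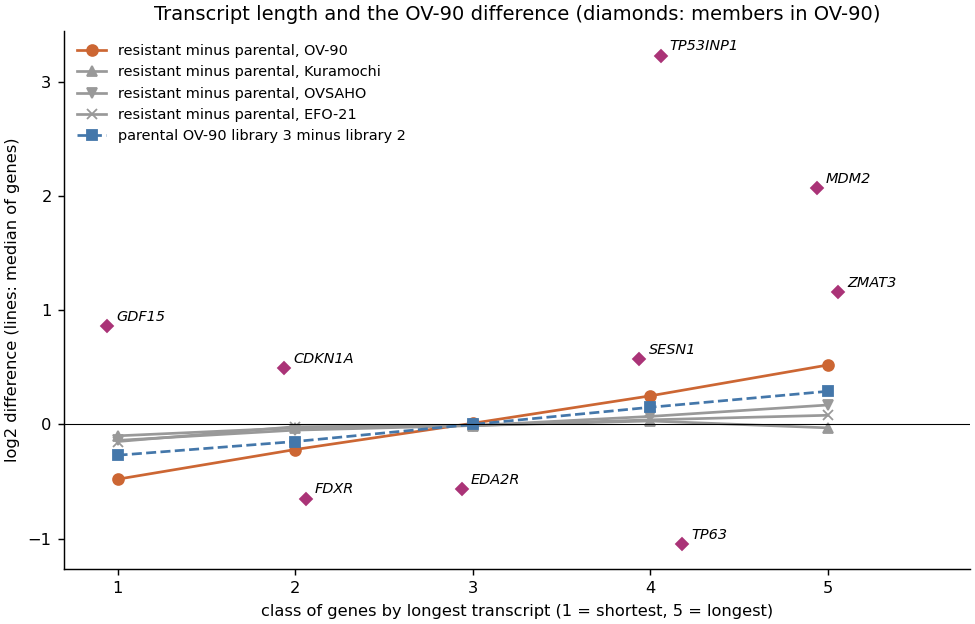
Median log2 difference (vertical axis) of genes in 5 classes of transcript length from shortest to longest (horizontal axis), for resistant minus parental libraries of each line and for the 2 parental OV-90 libraries. The OV-90 line climbs from -0.48 to 0.52 while the other lines stay between -0.15 and 0.17; diamonds are the members in OV-90, with TP53INP1 and MDM2 far above the line.

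TP73, a family member of TP63, fell in Kuramochi, from 5.20 to 3.88 (adjusted p = 0.00174 in limma), and rose in OVSAHO, from 2.41 to 3.46 (adjusted p = 0.012). The OVSAHO call was lost without library 9 and with genes of like length centred. In OV-90 TP73 had means of 6.02 and 6.07, and in EFO-21 4.77 and 5.68. MDM4, an MDM2 relative that restrains p53, had means of 4.59 and 5.15 in OV-90, 5.90 and 5.95 in Kuramochi, 5.25 and 5.69 in OVSAHO, and 4.52 and 5.24 in EFO-21, none past the rule.

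Of the 100 other p53 targets, 15 rose and 6 fell in resistant OV-90 by the same rule, 14 rose and 13 fell in Kuramochi, 5 rose and 2 fell in OVSAHO, and 8 rose and 9 fell in EFO-21. Over all genes 9.5% were called higher and 6.56% lower in OV-90, 11.8% and 10.6% in Kuramochi, 3.93% and 3.83% in OVSAHO, and 7.11% and 7.15% in EFO-21, so most of these counts lie near the share of all genes. Their median difference was -0.09 in OV-90 beside -0.06 over all genes, 0.17 beside -0.02 in Kuramochi, 0.01 beside 0.00 in OVSAHO and 0.03 beside 0.01 in EFO-21. The OV-90 count of 21 was 14 without library 2, 27 without library 3, and 0 without any one of the 3 resistant libraries, when 33 to 35 targets still had an unadjusted p under 0.05. With genes of like length centred it was 14, of which 9 were higher.

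Among called targets without overlap whose higher group mean lay above the median of all group means, the largest rises in OV-90 were those of PRKAB2, a subunit of the energy sensor AMPK (2.23, adjusted p = 0.0437 in limma), the antiproliferative gene BTG2 (2.10, adjusted p = 0.0169) and APAF1, the core of the apoptosome (1.89, adjusted p = 0.0239). SCO2, a cytochrome c oxidase assembly factor, fell by 1.51 (adjusted p = 0.0356), and the repair gene DDB2 fell by 1.18 (adjusted p = 0.0209). In Kuramochi the lysosomal autophagy gene DRAM1 rose by 2.87, to a mean at the limit for being named, KITLG, the ligand of the KIT receptor, by 2.56 and the stress transcription factor ATF3 by 2.35. SYTL1, an effector in vesicle traffic, fell by 4.54 there, SFN, encoding 14-3-3 sigma, by 3.33 and the tetraspanin gene CD82 by 1.91, with limma adjusted p between 1.07e-05 and 0.00117 for these 6.

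In OVSAHO 2 targets met the conditions for being named, and PLK2, a polo-like kinase gene, rose by 1.57 (adjusted p = 5.14e-05 in limma) while SFN fell by 2.14 (adjusted p = 1.59e-04). In EFO-21 the potassium channel gene KCNN4 rose by 1.32, PIDD1, of the PIDDosome, by 1.10 and MR1, an antigen-presenting molecule, by 1.10. The death receptor gene FAS fell by 2.85 there, the polyamine acetyltransferase gene SAT1 by 2.75 and PLK2 by 1.53, with adjusted p between 9.87e-06 and 4.43e-04 in limma. Of the 100 targets, 47 were called in no line, 39 in 1 line, and 14 in 2 or more, and 7 of these 14 were called in opposite directions in different lines. Over all genes 56.4% were called in no line, 29.8% in 1 line, 13.8% in 2 or more and 6.25% in opposite directions, so the targets recurred and opposed about as often as all genes. ATF3 rose in 3 lines, and GLS2, a mitochondrial glutaminase gene, fell in 3, and no other target was called 1 way in 3 lines and in no line the other way. Both were named for this after their values were seen.

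Whether targets differed between lines in their change was tested with limma's interaction term for each of the 6 pairs of lines. Between 42 and 65 of the 100 targets differed at an adjusted p under 0.05, with no fold threshold, and 88 differed in at least 1 pair. Over all genes the share was between 32.4% and 56.1% per pair and 82.1% in at least 1 pair. The pair OV-90 and EFO-21 had the most differing targets (65, with 47.7% of all genes) and the pair OVSAHO and EFO-21 the fewest (42, with 32.4%).

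Genes downstream of single members were counted in the same way, and the counts stand beside 9.5% of all genes called higher and 6.56% called lower in OV-90, 11.8% and 10.6% in Kuramochi, 3.93% and 3.83% in OVSAHO, and 7.11% and 7.15% in EFO-21. A route by which CDKN1A halts the cell cycle is repression of genes through p21 and the DREAM complex. Of 24 genes repressed in this way, 1 rose and 1 fell in OV-90, 1 rose in Kuramochi, and 1 fell in EFO-21. In OVSAHO 0 of these were called by limma, with 13 at an unadjusted p under 0.05. That count was 16 in Kuramochi, 14 in OV-90 and 15 in EFO-21. Positive differences were seen in 19 of the 24 in Kuramochi, with a median of 0.18 beside -0.02 over all genes. They were 11 in OV-90, 14 in OVSAHO and 13 in EFO-21. The single call in Kuramochi, where CDKN1A had its largest difference, was a rise of CDK1, the mitotic kinase gene, by 1.01 (adjusted p = 7.12e-05), and it fell short of the rule without library 6 or library 17.

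Of 19 measured genes of the p63 programme in basal epithelium, 8 fell and 3 rose in Kuramochi and 9 fell and 1 rose in OVSAHO, the lines in which TP63 was lowest after resistance. Over all genes 10.6% were called lower and 11.8% higher in Kuramochi, and 3.83% and 3.93% in OVSAHO. In OV-90 3 fell and 1 rose, beside 6.56% and 9.5% of all genes, and in EFO-21 likewise, beside 7.15% and 7.11%. Without library 13, 14 or 15 none of the list was called by limma in OV-90, with 5 genes at an unadjusted p under 0.05. The parental OV-90 libraries also stood far apart in KRT5 and KRT14 (SD 3.95 and 3.96). The basal keratin gene KRT5 fell from 6.21 to the bottom (0.30) in Kuramochi and from 7.19 to 2.33 in OVSAHO, and KRT14 from 6.88 to 0.86 in OVSAHO, with limma adjusted p of 1.06e-04, 4.00e-05 and 4.09e-05. KRT17 fell from 7.41 to 2.08 in Kuramochi and by 2.66 in EFO-21, where TP63 libraries overlapped (adjusted p = 5.35e-05 and 1.60e-04). Reads of keratin genes can be split between near-identical copies, so single values are uncertain. The median difference of the list was -0.89 in Kuramochi and -0.95 in OVSAHO, and -0.65 in OV-90 and -0.31 in EFO-21. Of 9 epithelial and Müllerian markers, limma called 6 in Kuramochi and 4 in OVSAHO, all lower. Among them the mean of EPCAM went from 6.47 to 2.69 in Kuramochi and from 8.83 to 5.82 in OVSAHO, whereas PAX8 (9.02 and 9.03) and SOX17 (11.92 and 12.29) were not lower in resistant OVSAHO. The sum of the 9 log2 values, which is not total expression, went from between 70.2 and 71.1 to between 54.9 and 55.7 in Kuramochi. In OVSAHO it went from between 83.4 and 84.1 to between 71.2 and 71.8. In OV-90 and EFO-21 that sum ran from 54.5 to 57.3 and from 66.0 to 67.8 over both groups, though CDH1 went from 4.65 to 6.03 in EFO-21. Of 5 fibroblast markers 2 were called higher and 2 lower in each of Kuramochi and OVSAHO. LUM was higher in both (2.24 and 4.28, 2.03 and 6.76), COL1A1 lower in both, and DCN lower in Kuramochi (3.53 and 1.01) but higher in OVSAHO (2.05 and 6.27). Of 4 endothelial markers 1 was called higher and 2 lower in Kuramochi, where CDH5 went from 4.75 to 7.62, and 1 was called in OVSAHO. Of 5 immune markers 1 was called lower in Kuramochi and 3 in OVSAHO. The part of these markers in the p63 counts was not tested.

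EDA, the gene of the EDA2R ligand, was at the bottom in both Kuramochi groups (0.78 and 1.33). Its means were 2.83 and 2.99 in OV-90, 4.87 and 4.85 in OVSAHO, and 4.83 and 5.29 in EFO-21. EDAR, encoding the receptor for the A1 form of ectodysplasin, fell in Kuramochi from 4.91 to 1.36 and in EFO-21 from 5.70 to 4.10, and rose in OV-90 from 3.07 to 4.47 (limma adjusted p = 0.00642, 0.00593 and 0.0219). In OVSAHO EDAR had means of 2.89 and 2.76. Of 12 genes listed for ectodysplasin and related receptors, 3 rose and 2 fell in Kuramochi and 1 rose in OV-90. In OVSAHO 1 rose and 1 fell, and in EFO-21 2 fell. The list is wider than EDA2R signalling, since it holds the receptor genes EDAR and TNFRSF19 and the EDAR adaptor gene EDARADD. The fall in OVSAHO was lost without library 9. Over all genes 11.8% were called higher and 10.6% lower in Kuramochi, 9.5% and 6.56% in OV-90, 3.93% and 3.83% in OVSAHO, and 7.11% and 7.15% in EFO-21, so the single call in OV-90 is below the share over all genes. TRAF1, an adaptor, rose by 2.67 in Kuramochi (adjusted p = 1.19e-04 in limma), and the adaptor gene EDARADD rose by 2.70 in OVSAHO (adjusted p = 0.00498).

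Of the 2 genes of the GDF15 receptor complex, RET was measured. It rose in Kuramochi, the line with the largest GDF15 difference, from 0.81 to 4.32 (limma adjusted p = 3.73e-05), and had means of 4.11 and 4.45 in OVSAHO. The parental Kuramochi mean of RET lay at the bottom, so the size of that difference is uncertain. In OV-90 and EFO-21 all RET means were below 1.70. GDF15 is also a target of the integrated stress response, and of 14 genes of that response 3 rose and 1 fell in Kuramochi, 2 rose in OVSAHO, 3 fell in OV-90 and 2 fell in EFO-21. These are 28.6%, 14.3%, 21.4% and 14.3% of the list, beside 11.8% of all genes called higher and 10.6% lower in Kuramochi, 3.93% and 3.83% in OVSAHO, 9.5% and 6.56% in OV-90, and 7.11% and 7.15% in EFO-21, where the list is at the share of all genes. The 2 calls in EFO-21 became 1 without library 11 or 23 and 0 by limma without library 24, when 9 genes had an unadjusted p under 0.05. The fall in Kuramochi, that of SLC7A11, was not called without library 16 or 18. FGF21, a secreted stress hormone, rose by 1.92 in Kuramochi (adjusted p = 0.0105 in limma) and by 2.20 in OVSAHO (adjusted p = 0.0268). The OVSAHO call was lost without library 9, 19, 20 or 21. Its parental mean there lay at the bottom (1.23), so the size of that difference is uncertain. CHAC1, which degrades glutathione, fell by 2.76 in OV-90 (adjusted p = 0.00792). Of 22 regulators of p53, 5 rose in OV-90, among them the kinase gene ATM by 1.75 and the acetyltransferase gene EP300 by 1.53 (adjusted p = 0.021 and 0.0237 in limma). This is 22.7% of the list, beside 9.5% of all genes called higher, and with genes of like transcript length centred only ATM was called. This list was taken with those for ectodysplasin receptors, p21, p63, the GDF15 receptor, the stress response and the chromosome X neighbours. Of these lists, 0 genes were called by limma in OV-90 without library 13 or library 15, and only CHAC1 without library 14. Of the 22 regulators 9, 9 and 12 then had an unadjusted p under 0.05 without libraries 13, 15 and 14. In Kuramochi 1 rose, CHEK1, which encodes the target of prexasertib, by 2.63 (adjusted p = 6.25e-06), and 1 fell, TP73. In OVSAHO 1 rose, TP73, which was not called without library 9 or with genes of like length centred, and in EFO-21 0 were called, with 13 at an unadjusted p under 0.05.

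EDA2R lies on chromosome X, in GRCh37 at chrX:65815479-65859140 on the minus strand. Of 8 measured genes from a list of 10 within a few megabases, 4 rose and 0 fell in resistant Kuramochi, against 11.8% of all genes called higher. ZC4H2 rose from 1.47 to 4.56 and STARD8 from 2.74 to 5.32 (limma adjusted p = 3.61e-04 and 1.47e-04). The parental mean of ZC4H2 lies at the bottom, as that of EDA2R does. MSN and LAS1L, which were expressed in parental Kuramochi, rose by 1.33 and 1.15. Among the other 4, PJA1 and YIPF6 had differences of 0.93 and 0.60, ZC3H12B 0.30 and EFNB1 -0.65. In OV-90 2 of the 8 rose (ZC3H12B and MSN), beside 9.5% of all genes, but with genes of like transcript length centred neither was called and LAS1L was called lower, and in OVSAHO and EFO-21 0 were called, with 2 and 4 at an unadjusted p under 0.05. Copy number and methylation of the region were not analysed here.

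**Figure D4:**
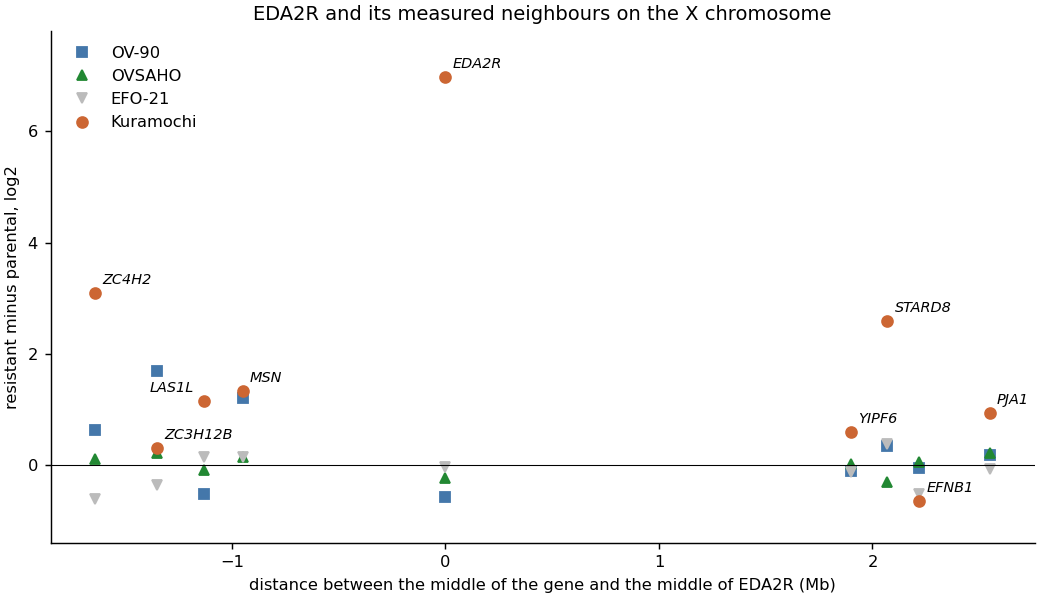
Difference of resistant minus parental group means on the log2 scale (vertical axis) for EDA2R and 8 measured neighbours on chromosome X, by the distance between gene middles in megabases (horizontal axis), with 1 colour per line. In Kuramochi 7 of the 8 neighbours lie above 0 and EFNB1 (-0.65) below, while OVSAHO stays between -0.31 and 0.22.

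The genes whose pattern over the 8 group means was most like that of EDA2R, among 15966 compared, were ODAD2 (Pearson r = 0.978), TICAM1 (0.973), TMOD2 (0.972), an entry without a symbol (0.963) and ODAD2P1 (0.96). ODAD2 and its pseudogene ODAD2P1 can share reads, so they may be 1 pattern. ODAD2 went from 0.27 in parental to 8.25 in resistant Kuramochi, and TICAM1 from 6.57 to 7.98. For CDKN1A the closest were PLEKHO2 (r = 0.987), MLXIP (0.981), PCDHGB2 (0.977), RFTN1 (0.974) and PHLDB2 (0.973), all lowest in OVSAHO. With 8 points from 4 lines, groups of a line are not independent, and these values rank genes and carry no test.

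The members themselves did not share 1 pattern over the 8 groups. The highest correlation between any pair was 0.61, for SESN1 with TP53INP1, and the lowest -0.74, for ZMAT3 with GDF15. CDKN1A and MDM2, both classical readouts of p53 activity, had r = -0.13, and EDA2R and CDKN1A -0.03. These are descriptions over 8 group means of 4 lines.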

How the data were processed

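The authors mapped reads to GRCh37/hg19 and left out exons with few reads in most samples. They summarised exon reads per gene, by a robust linear model for 16448 genes and by a mean of log2 exon values for 5210, and deposited quantile-normalized log2 values for 21658 genes by NCBI Gene ID. Symbols came from a RefSeq table (20745 genes, 95.8%), transcript lengths and positions from GENCODE lifted to GRCh37. The annotation used for counting is not given in the sources used here. Depth is unknown, so precision rests on the spread between libraries, and quantile normalization hides shifts common to most genes. All 23 columns named a group but no replicate (0 columns of other samples).

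Each resistant line was compared with its parent by limma 3.58.1 (R 4.3.3; lmFit, eBayes with trend, two-sided), without pseudocount or filter. Baseline and interaction contrasts came from a fit of 8 group means. P-values were adjusted over all genes (Benjamini-Hochberg), and a call needed an adjusted p under 0.05 and 2-fold. An exact permutation test of 3 against 3 libraries cannot give a p below 0.1 and was not used. The code was tested on simulated data.

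The members and all gene lists were chosen with earlier results of these data known. Named targets are, per comparison, up to 3 rises and 3 falls, the largest among called genes without overlap with the higher of both means above the median of all group means. From other lists, up to 2 called genes per line were eligible, and 5 genes most like EDA2R and CDKN1A were named. Any other gene was named with its values in view. Alternatives were 1 fit of 23 libraries, no trend, genes above the 25th percentile, recentring, other fold thresholds, transcript length centring in 20 bins (added after seeing the data) and leaving out each library. Some genes are not reported here and were left out of the lists.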

Additional observations from a re-analysis of the deposited data

Results flagged for a closer look

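Several members differed in opposite directions in 2 lines, with no overlap between resistant and parental libraries in either, and these differences between lines were not tested. OV-90 was 1 of the 2 lines each time, and in that line 69.1% of all genes did not overlap. How many of all genes have this opposite pattern was not counted. The members were picked on these contrasts, so nothing is read from it. MDM2 was 2.07 higher in resistant OV-90 and 0.94 lower in resistant EFO-21 on the log2 scale, 3.01 apart. TP53INP1 was 4.53 apart between OV-90 and OVSAHO, EDA2R 7.54 apart between Kuramochi and OV-90, where all resistant libraries are at the bottom, and FDXR 1.64 apart between EFO-21 and OV-90. SESN1 and ZMAT3 were 1.71 and 1.87 apart between OV-90 and Kuramochi, and both values shrink when OV-90 genes of like transcript length are centred.

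Among named other targets, 4 were called in opposite directions in 2 lines, and the difference between the lines itself passed limma's interaction test. The only OV-90 call among these, that of BTG2, was lost without library 13, 14 or 15. BTG2 differed by 3.17 between OV-90 and Kuramochi (adjusted p = 2.48e-08), KITLG by 5.36 between Kuramochi and EFO-21 (adjusted p = 6.21e-10), SAT1 by 4.05 between the same lines (adjusted p = 6.68e-13) and PLK2 by 3.10 between OVSAHO and EFO-21 (adjusted p = 3.18e-14). They were picked for these opposite calls, so the p-values are no independent test of the difference.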

How the results depend on the processing

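With no reads per value, low genes carry an unknown counting error. Without a fold threshold, the counts of other targets called were 33 in OV-90, 59 in Kuramochi, 41 in OVSAHO and 66 in EFO-21 for resistance, and 80, 85, 77 and 81 for the parental contrasts in the same order, beside 36.0%, 46.9%, 33.3%, 48.4%, 77.4%, 72.3%, 73.9% and 76.4% of all genes. At 1.5-fold they were 51, 20 and 32 in Kuramochi, OVSAHO and EFO-21, and 63 and 57 for parental Kuramochi and OVSAHO, beside 35.5%, 14.6%, 25.8%, 53.6% and 55.5%. Leaving out 1 library gave 0 to 27 in OV-90, 27 to 30 in Kuramochi, 5 to 8 in OVSAHO and 15 to 17 in EFO-21, and 43 to 49, 35 to 41, 35 to 40 and 41 to 46 for the parental contrasts. The 0 in OV-90 comes without any 1 resistant library, with 2 against 2 libraries left, and where 1 parental library is left it is assumed to vary like the others. Members past the rule were 1 to 4 in OV-90 and 0 to 1 in EFO-21 with 1 library left out (2 in OV-90 without library 2), and stayed at 5 in Kuramochi and 3 in OVSAHO. Beside the same shares of all genes, they were 8 in OV-90 and 5 in EFO-21 without a fold threshold and 4 in EFO-21 at 1.5-fold, and 1 there with length centring (MDM2). Kuramochi had 3 with genes above the 25th percentile, a filter that removes EDA2R and TP63. Of 166 alternative values of these counts 138 stayed within 1.5 times, and of 315 of the members' differences 292 moved by less than 1 SD and 0 reversed a called direction. No paired analysis was possible because the columns carry no replicate number.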
